A study of Homo sapiens with 58 samples.

Results

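The ABC transporter family was described across 58 human cell lines labelled as breast cancer, as the 43 genes whose symbol in the array annotation had the form ABC, a letter from A to G and a number, out of 19798 genes measured. The symbol alone chose the members, and no measured value entered the choice. They fall into 7 subfamilies, ABCA to ABCG, and 42 of them are protein coding, while ABCC13 is listed as a transcribed pseudogene. TAP1, TAP2 and CFTR belong to the same protein family under other symbols and were read as relatives.

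All lines were grown at baseline with no treatment, and each was read out on 1 custom Affymetrix array, so no group, genotype contrast or replicate is defined by the labels. Values are log2 intensities, where 1 log2 unit is a 2-fold difference in signal for the same probe set. Each gene was read from its probe set with the highest mean, and because probe sets differ in how brightly they bind, levels are compared between lines for 1 gene and never between genes. Lines known to come from the same patient or parent line were averaged, which gave 50 units, and p-values below measure the spread between those lines or units. A gene was called above background where its level exceeded 5.58, the 95th percentile of 616 probe sets against viral sequences, and detected where it exceeded the array median in at least 3 units.

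ABC transporters use the energy of ATP to carry substrates across membranes, and most full members hold a pair of membrane domains and a pair of nucleotide-binding domains. Members of the ABCB, ABCC and ABCG groups at the cell surface export drugs and their conjugates, and ABCB1, ABCG2 and the ABCC proteins are the family members best known for multidrug resistance in breast cancer. Most ABCA proteins and ABCG1 move lipids, ABCD proteins work in peroxisomes or lysosomes, and ABCE1 and the ABCF proteins lack membrane domains and act on ribosomes and translation.

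The label "breast cancer" was compared with marker genes. Of the 58 lines, 46 had at least 5 of 6 measured epithelial markers above background. The 4 lines HS362T, HS579MG, HS605T and HS739T had 2 to 4 of these 6, together with 6 of 6 fibroblast markers, and the mean level of the fibroblast list was 12.76 to 13.24 in them against 3.98 to 12.71 in the other 54. HS578T and FR2 also had 6 of 6 fibroblast markers. MDAMB435S, M4A4 and NM2C5 had 4, 5 and 5 of 5 measured melanocyte markers, and MT3 had 6 of 6 intestinal markers, and these lines are reported elsewhere as not from breast. SW527 had 4 of the 6 intestinal markers and CAL51 had 3, and the origin of these lines was not tested. Some lines are known as non-malignant breast epithelial lines, MCF12A and HMT3522S1 among them, although all lines carry the same label. That list is not complete. Array medians ran from 5.37 to 5.58, and the spread of each array around the median array (interquartile range of the differences over genes) ran from 0.452 to 0.639 with HS362T, MB157 and EFM192A widest. As in any bulk RNA measurement, fewer cells with a transcript and less transcript per cell cannot be told apart.

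Every line kept a core of ABC transcripts and added a variable set. Between 19 members (COLO824) and 29 members (MDAMB175VII) were above background in a line. Of the 43 members, 11 were above background in all 50 units, a pattern seen in 38.6% of all genes. These were ABCA2, ABCB6, ABCB10, ABCC5, ABCC10, ABCD3, ABCD4, ABCE1, ABCF1, ABCF2 and ABCF3. By the chosen probe set, ABCB5, ABCD2, ABCG4, ABCG5 and ABCG8 were above background in no unit, as were 20.3% of all genes. Another probe set of ABCB5 read 5.92 in NM2C5 and another of ABCD2 read 5.80 in HMT3522T42, each above background in that line alone. Detection held for 35 members, against 74.0% of all genes, and failed for those 5 and for ABCA9, ABCB11 and ABCC12.

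**Figure D1:**
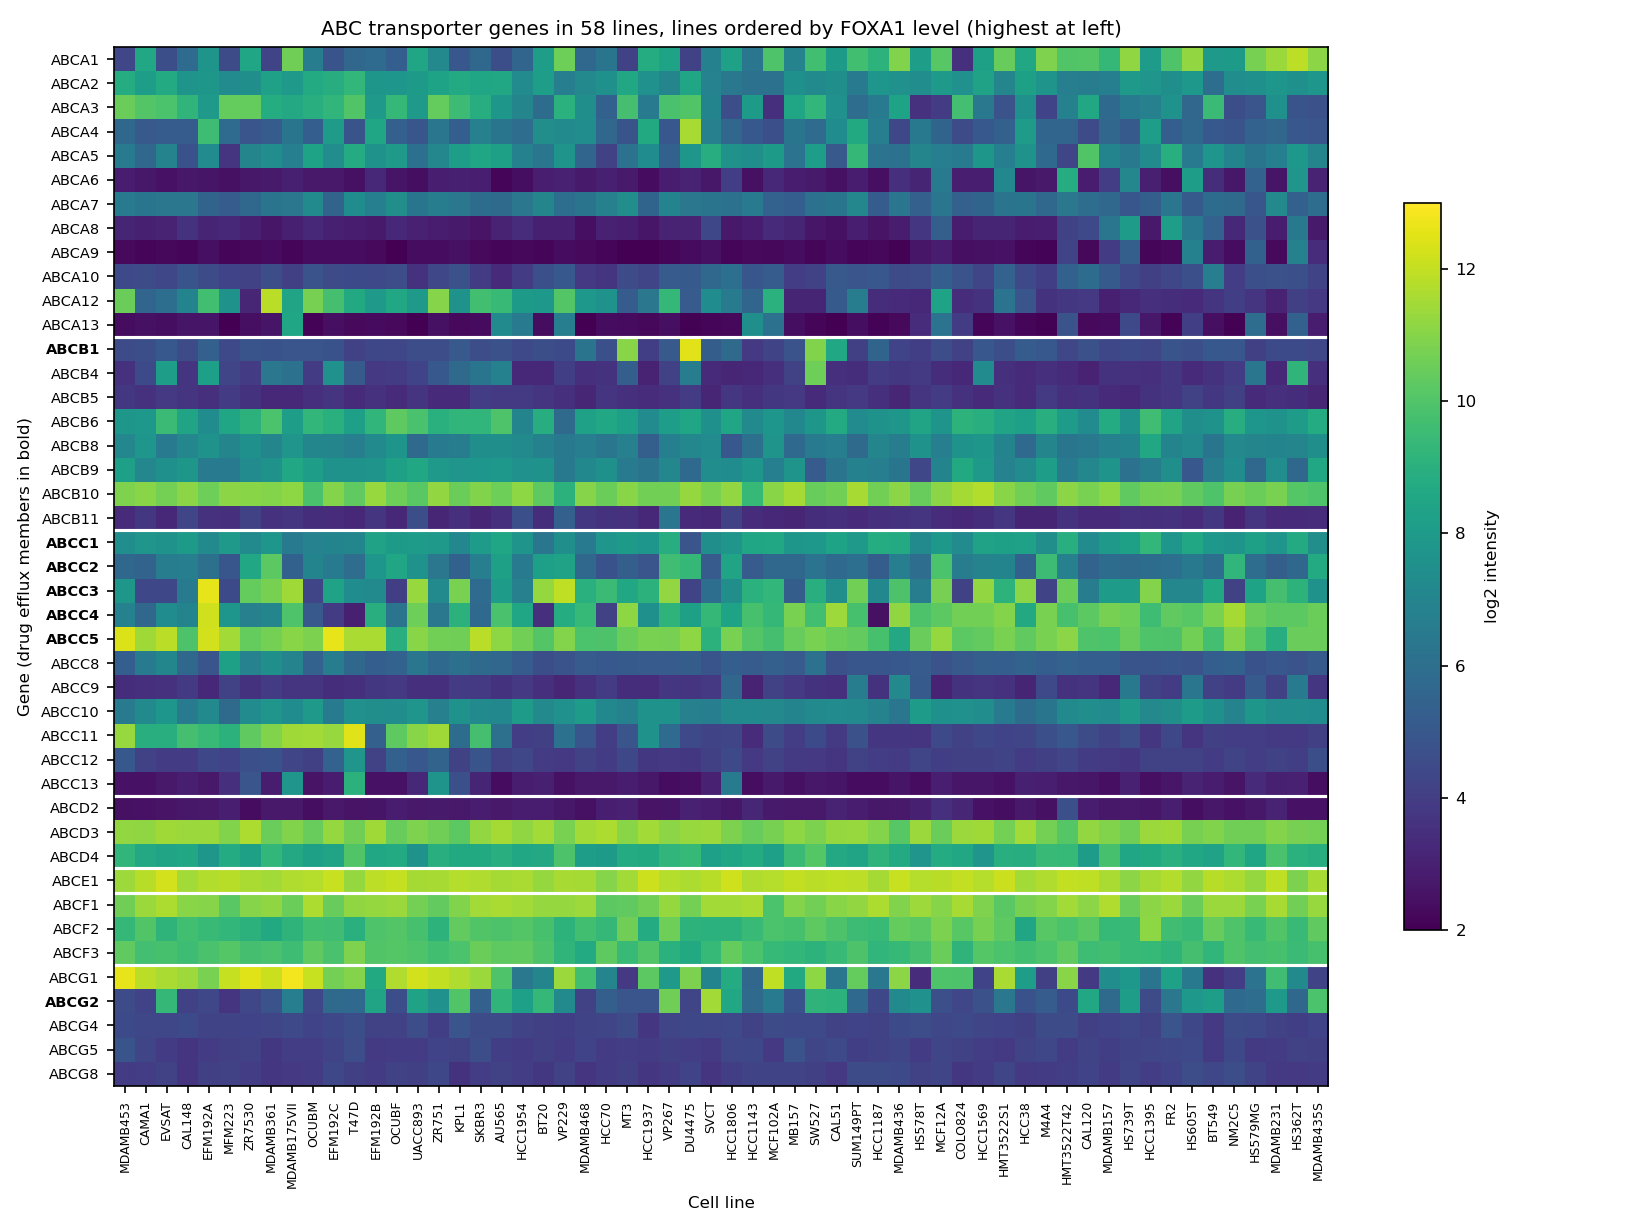
Level of each of the 43 ABC genes (rows, by subfamily, separated by white lines) in each of the 58 lines (columns, ordered by the FOXA1 level with the highest at left), with colour giving log2 intensity. ABCE1, ABCF1 and ABCD3 have an even row across the lines, while ABCB1, ABCC11, ABCA12 and ABCG1 have rows in which a few lines or one side of the plot stand out, and colours compare lines within a row only.

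Promoter sequences of members that were on everywhere and of members that were mostly off were read for CG dinucleotides before the gene start. Sequences of the 250 bases before the start were taken from RefSeq (GRCh38.p14), which matched 34 of the 43 members, and for a gene with several listed starts the start with the most CG dinucleotides was used. CG dinucleotides, shown in capitals, are where DNA of human promoters can be methylated, and methylation was not measured here. Printed are ABCE1, on in every unit (chr4:145098061-145098310, plus strand), ABCC4, CG-rich and off in 5 units (chr13:95301452-95301701, minus strand), the drug pump ABCB1, on in 6 units (chr7:87600885-87601134, minus strand), and ABCB11, on in 1 unit (chr2:169031325-169031574, minus strand), each 5′ to 3′ along the gene.
ABCE1: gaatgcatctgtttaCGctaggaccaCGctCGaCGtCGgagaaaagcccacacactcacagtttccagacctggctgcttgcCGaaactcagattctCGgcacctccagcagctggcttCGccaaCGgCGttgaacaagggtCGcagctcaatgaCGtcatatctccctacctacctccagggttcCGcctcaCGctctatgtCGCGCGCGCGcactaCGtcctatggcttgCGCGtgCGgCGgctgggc
ABCC4: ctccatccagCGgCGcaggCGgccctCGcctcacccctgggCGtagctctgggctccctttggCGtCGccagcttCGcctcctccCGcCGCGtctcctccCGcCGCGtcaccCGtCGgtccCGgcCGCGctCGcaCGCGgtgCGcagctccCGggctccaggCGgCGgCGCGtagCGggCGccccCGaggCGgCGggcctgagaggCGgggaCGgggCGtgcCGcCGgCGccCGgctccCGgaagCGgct
ABCB1: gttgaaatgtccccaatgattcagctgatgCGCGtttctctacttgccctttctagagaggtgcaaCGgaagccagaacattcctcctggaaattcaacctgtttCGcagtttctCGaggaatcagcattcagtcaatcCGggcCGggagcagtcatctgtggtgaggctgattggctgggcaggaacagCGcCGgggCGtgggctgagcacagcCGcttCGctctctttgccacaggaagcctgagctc
ABCB11: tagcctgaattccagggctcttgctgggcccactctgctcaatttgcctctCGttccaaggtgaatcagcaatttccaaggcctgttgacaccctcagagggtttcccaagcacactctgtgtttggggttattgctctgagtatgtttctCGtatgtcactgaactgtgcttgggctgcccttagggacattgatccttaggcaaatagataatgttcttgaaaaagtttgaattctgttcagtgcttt

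These windows hold 24 CG dinucleotides for ABCE1, 42 for ABCC4, 12 for ABCB1 and 2 for ABCB11. The 11 members on in all units had a median of 26 CG dinucleotides and at least 16 each, beside a median of 24 over all genes on in every unit. The 19 members on in some units had a median of 13, with a range from 1 to 42, beside 17 over all such genes, and the 4 matched members that were on in no unit had a median of 8, beside 4. At least 12 CG dinucleotides were found in 11 of 11, 11 of 19 and 1 of 4 of these windows, beside 92.6% of the windows of all genes on in every unit, 3816 of the 6075 on in some, 760 of the 2816 on in none, and 68.8% of all 15403 matched genes. Among the 34 matched members as a whole the share was 67.6%, near that of all genes. Across the 34 members, the Spearman correlation between the CG count and the number of units above background was 0.61, and across the 15403 genes it was 0.51, both given as descriptions across genes, which are not independent replicates and whose probe sets differ in brightness.

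Several members did not follow that order. ABCC2 had 1 CG dinucleotide and was above background in 37 units, and ABCA12 had 2 and was above background in 25. ABCG4, a sterol transporter of neurons, had 25 and was above background in none. ABCG5 and ABCG8, which form the sterol pump of liver and intestine, lie head to head, so their windows share 131 bases, hold 8 CG dinucleotides each and belong to genes that were on in no unit.

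**Figure D2:**
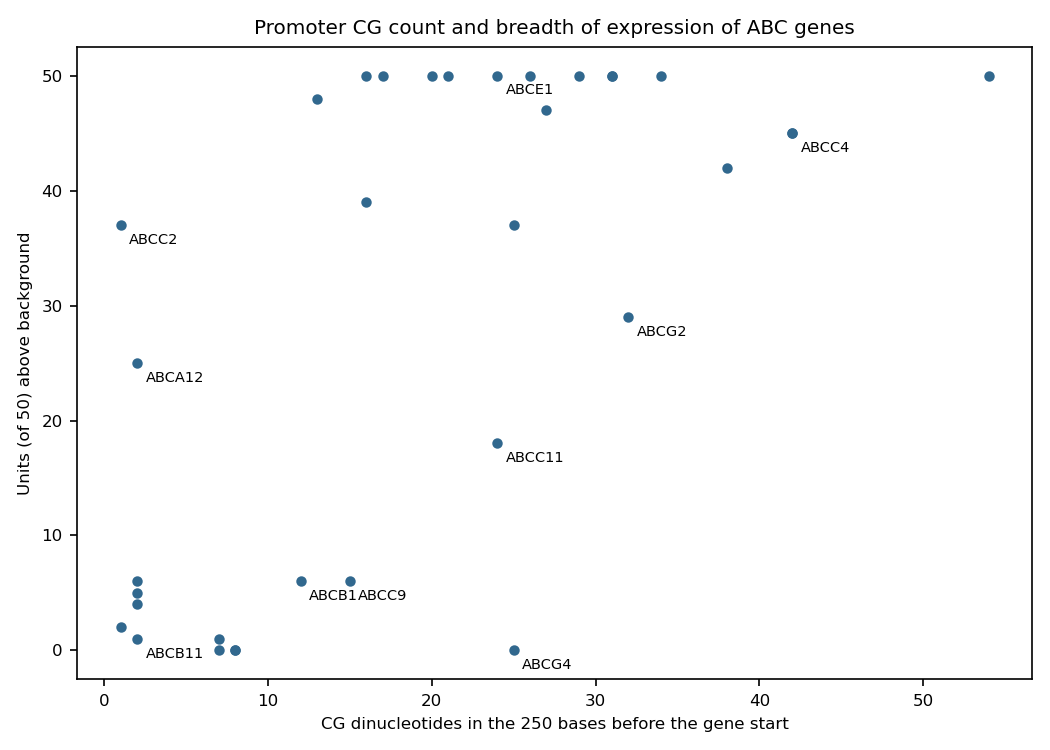
For each of 34 ABC genes with a RefSeq promoter, the number of CG dinucleotides in the 250 bases before the gene start (x axis) and the number of 50 units in which the gene was above background (y axis), 1 point per gene. All 11 genes at 50 units have at least 16 CG dinucleotides, while ABCC2 and ABCA12 lie at the left with 37 and 25 units and ABCG4 lies at the bottom with 25 CG dinucleotides.

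ABCB1, the P-glycoprotein that exports many hydrophobic drugs, was the efflux gene with the fewest lines above background. Its level ran from 3.83 (HCC1143) through a median of 4.65 to 12.48 (DU4475), and 6 of 58 lines were above background. The other 5 were MT3 at 11.03, SW527 at 10.92, CAL51 at 8.57, MDAMB468 at 6.24 and HCC1806 at 5.82. The remaining 52 lines lay in a narrow band near or under background, so DU4475, MT3, SW527 and CAL51 stood more than 2 log2 units above the rest. Intestinal markers moved with this list in part, with 6 of 6 above background in MT3, 4 in SW527, 3 in CAL51, 2 in DU4475, 1 in HCC1806 and 0 in MDAMB468. The mean level of the 6 markers was 11.21 in MT3, 6.41 in SW527, 6.08 in CAL51 and 4.75 in DU4475, against 3.27 to 5.13 in the 52 lines with ABCB1 under background, and their part in the ABCB1 level was not tested.

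ABCG2, the breast cancer resistance protein, is a half-transporter that exports drugs such as mitoxantrone and also carries riboflavin into milk. It was above background in 34 lines, from 3.67 (MFM223) through a median of 5.79 to 11.47 (SVCT). VP267 at 10.61, KPL1 at 10.004, MDAMB435S at 9.88, EVSAT at 9.34 and BT20 at 9.31 followed. Levels were spread without a clear break, and SVCT stood 1.47 above the next unit.

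ABCC1, which exports glutathione conjugates such as leukotriene C4, was above background in 57 of 58 lines. It ran from 4.89 (DU4475) through a median of 7.84 to 9.27 (HCC1395), with HMT3522T42 at 8.89, VP267 at 8.87, HCC1187 at 8.82, MDAMB436 at 8.72 and HS362T at 8.72 next. DU4475, the line highest in ABCB1, was thus the only line with ABCC1 under background.

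ABCC2 and ABCC3 export conjugates at the apical and the basolateral face of polarised cells. ABCC2 ran from 4.78 (HCC70) through a median of 6.13 to 10.25 (MDAMB361) and was above background in 45 lines, with MCF12A at 9.90, VP267 at 9.63, M4A4 at 9.52, DU4475 at 9.34 and NM2C5 at 9.25 next. ABCC3 was above background in 48 lines, from 4.03 (OCUBF) through a median of 8.21 to 12.59 (EFM192A), with VP229 at 11.93, MDAMB175VII at 11.43, UACC893 at 11.29, BT20 at 11.28 and VP267 at 11.22 next. VP229 and VP267, which come from 1 patient, were both among the highest lines for ABCC3. EFM192A, the highest, is also one of these 3 widest arrays, so its values are followed by the values without it where a result rests on it.

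ABCC4 and ABCC5 export cyclic nucleotides and nucleotide analogues, and ABCC4 also exports prostaglandins. ABCC4 had the widest range among the 7 efflux genes, from 2.48 (HCC1187) through a median of 9.63 to 12.19 (EFM192A). NM2C5 at 11.51, CAL51 at 11.40, MDAMB436 at 11.18, MT3 at 11.13 and HMT3522S1 at 10.96 followed, and without EFM192A the range still ran from 2.48 to 11.51. It was above background in 52 lines, and the lowest lines after HCC1187 were T47D at 2.96, BT20 at 3.46 and EFM192C at 3.97. Most lines were thus high and a handful had no signal above background. ABCC5 was above background in all 58 lines, from 8.62 (MDAMB436) through a median of 10.57 to 12.58 (EFM192C), with MDAMB453 at 12.40, EFM192A at 12.25, SKBR3 at 11.88, EVSAT at 11.86 and T47D at 11.62 next.

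**Figure D3:**
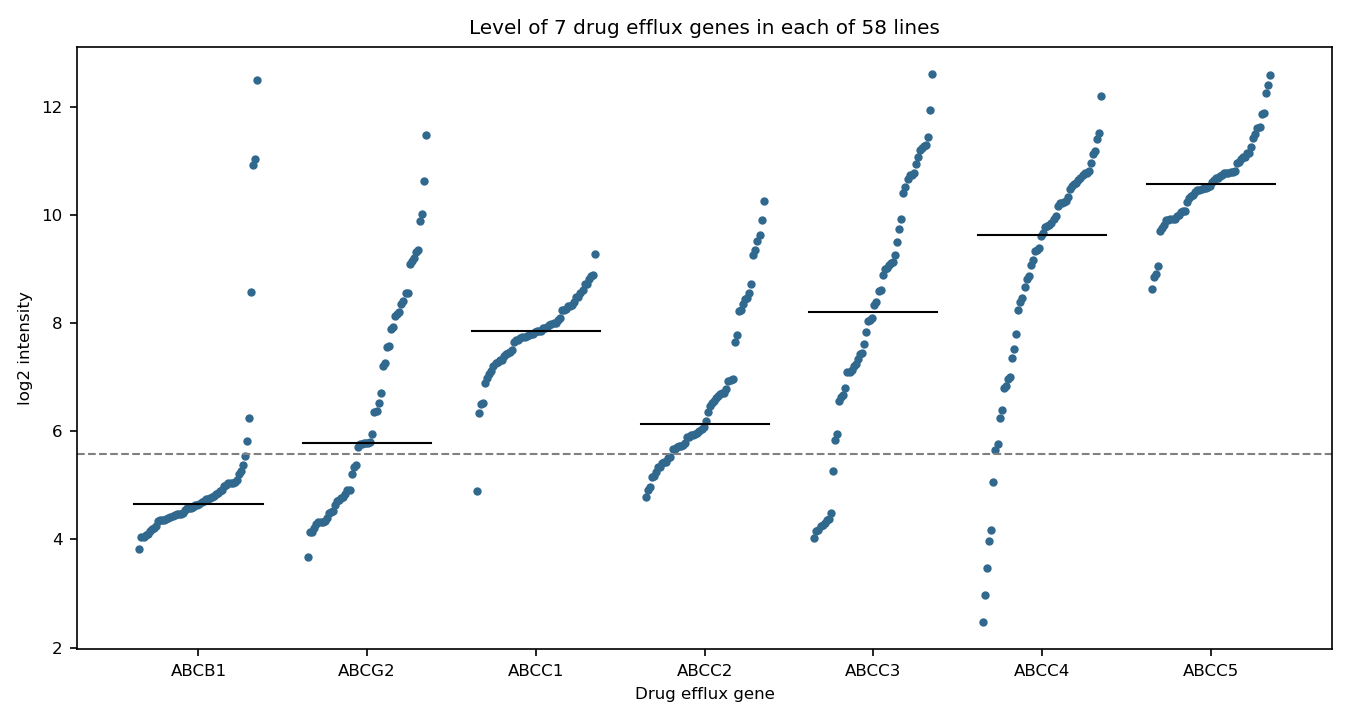
Log2 intensity (y axis) of the 7 drug efflux genes in each of 58 lines, 1 point per line sorted by level within each gene, with a solid bar at the median over lines and a dashed line at the background level of 5.58. ABCB1 has 6 points above the dashed line, ABCC4 falls to 2.48 in its lowest line, and ABCC5 lies above the dashed line in all lines.

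Lines differed in how many of the 7 efflux genes were above background. The number was 7 in 3 lines (HCC1806, SW527 and CAL51), 6 in 21 lines, 5 in 22, 4 in 7 and 3 in 5. The 5 lines with 3 were MFM223, CAMA1, OCUBM, HCC70 and HCC1187. Other probe sets of the efflux genes ranked the lines alike for some genes and not for others. For ABCB1 the Pearson correlation of the chosen probe set with the other two over lines was 0.97 and 0.96, and both were highest in DU4475. For ABCC5 the correlation with its other probe sets was 0.39 to 0.65, and all 3 of these were highest in MDAMB453, while the chosen probe set was highest in EFM192C. For ABCG2 the correlation was 0.80 and 0.82, but these other probe sets were above background in only 2 lines each. The other probe set of ABCC4 (correlation 0.91) was above background in 30 lines. The counts of efflux genes per line thus hold for the chosen probe sets.

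Among the lipid transporters, ABCA1 and ABCG1, which pass cholesterol to lipoproteins outside the cell, had wide and different patterns. ABCA1 ran from 3.47 (COLO824) to 11.92 (HS362T), with a median over units of 8.15 and MDAMB231 at 11.35 next. ABCG1 ran from 3.39 (HS578T) to 12.79 (MDAMB175VII), with a median of 9.79 and MDAMB453 at 12.60 next. HS362T, one of the 4 lines with fibroblast markers, was thus the highest line for ABCA1, while ABCG1 was under background in 8 lines, among them HS578T, BT549, MT3, CAL120 and the 3 lines of the MDAMB435 set, and above it in the other 50.

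ABCA12, the lipid carrier of lamellar granules in skin, was above background in 30 lines and reached 11.85 in MDAMB361 and 10.998 in ZR751, against a lowest unit value of 3.05. ABCA3, which loads surfactant lipid into lamellar bodies of the lung, ran over units from 3.47 (MCF102A) through 7.79 to 10.52 (MDAMB453). ABCA4, which clears retinoids from the outer segments of photoreceptors, was the only detected member whose highest unit exceeded the next by at least 1.5, beside 3.56% of detected genes. It reached 11.57 in DU4475, 2.86 above the next unit, while its median over units was 5.58, the background level. ABCC12, which was not detected, reached 7.73 in T47D, 2.24 above the next unit, and in no other unit was it above background.

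A run of related ABCA genes on chromosome 17 was low in most lines and above background in few. ABCA8 was highest in FR2 at 8.11 and HS739T at 8.04, ABCA9 in HS605T at 6.85 and HS362T at 6.83, and ABCA6 in HMT3522T42 at 8.82 and HS605T at 8.12. The 4 Hs lines were among the 8 highest of 58 for each of these 3 genes, and all 4 had 6 of 6 fibroblast markers, whose part in these levels was not tested. The other lines with 6 of 6, HS578T and FR2, read 3.14 and 2.43 for ABCA6 and 2.65 and 2.29 for ABCA9, and HS578T read 3.75 for ABCA8. ABCA10 was above background in 4 lines with a highest value of 6.71 in BT549, and ABCA5, the broadest of the run, was above background in 52 lines with 10.01 in CAL120. ABCA13 was above background in 8 lines, led by MDAMB175VII at 8.45, and ABCA7 was above background in 43 with a unit range from 4.93 to 7.45. ABCA2, a transporter of lysosome-related membranes, was above background in all lines, from 5.98 in BT549 to 9.27 in T47D.

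ABCB4, which moves phosphatidylcholine into bile and neighbours ABCB1, was above background in 13 lines, led by SW527 at 10.57 and HS362T at 9.21. SW527 was also among the 3 highest lines for ABCB1. ABCB11, the bile salt export pump, was above background in VP267 alone at 6.33. ABCB5, known from melanoma and the corneal limbus, was above background in no line by the chosen probe set, which read 3.18, 3.85 and 4.08 in MDAMB435S, M4A4 and NM2C5, the lines with melanocyte markers, while another of its probe sets read 5.92 in NM2C5.

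The remaining ABCC genes split lines most sharply at ABCC11, which exports conjugated lipophilic anions in apocrine glands. It was above background in 21 lines and under it in 37, with a median over lines of 4.54 and a highest value of 12.47 in T47D. OCUBM at 11.46, MDAMB175VII at 11.44, ZR751 at 11.42 and MDAMB453 at 11.31 followed. ABCC13 was above background in 4 lines, T47D at 9.08, MDAMB175VII at 7.74, ZR751 at 7.68 and HCC1806 at 6.55. T47D was therefore the highest line for ABCC11, ABCC12 and ABCC13. ABCC8 and ABCC9 are the sulfonylurea receptors, regulatory subunits of potassium channels built from KCNJ11 and KCNJ8. ABCC8 was above background in 15 lines, with 8.23 in MFM223 and 7.49 in MDAMB361, and ABCC9 in 6, with 7.20 in MDAMB436, 6.63 in SUM149PT and 6.50 in HS362T. Another probe set of ABCC9 was above background in 8 lines and highest in HS362T at 10.55. A further one was above it in 3 lines and highest in MDAMB436 at 6.50. ABCC10 was above background in all lines, between 5.78 and 8.09 over units.

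ABCE1, which splits ribosomes after translation ends, was above background in every line, with an SD over units of 0.306, and ran from 10.83 (HS362T) to 12.25 (EVSAT). ABCD3, which imports fatty acids into peroxisomes, ran from 10.15 to 11.65, and ABCD4, which works in the lysosomal handling of cobalamin, from 7.63 to 10.12. ABCF1, ABCF2 and ABCF3 ran from 9.90 to 11.65, from 8.52 to 11.12 and from 8.70 to 10.87 over units. The mitochondrial ABCB10 ran from 9.37 to 11.74 and ABCB8 from 4.97 to 8.57, ABCB6, a porphyrin carrier, from 6.97 to 10.29, and ABCB9, a peptide carrier of lysosomes, from 4.32 to 8.67. ABCD2 had no unit above 3.56. Over the family, 17 of 35 detected members had an SD over units of at least 1, beside 34.2% of all detected genes. They were 8 ABCA genes, ABCB1, ABCB4, ABCC2, ABCC3, ABCC4, ABCC11, ABCC13, ABCG1 and ABCG2.

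The nearest measurement of error came from 14 lines that make up 6 sets of common origin (AU565 and SKBR3, EFM192A, EFM192B and EFM192C, HMT3522S1 and HMT3522T42, MB157 and MDAMB157, MDAMB435S with M4A4 and NM2C5, and VP229 with VP267). This compares whether sets differed by more than lines within a set did. Lines of 1 set could differ in cell markers, and the part of this in their spread was not tested. MB157 had a CDH1 level of 12.77 and a fibroblast list mean of 4.72, against 6.23 and 11.1 in MDAMB157. Their averaged unit had CDH1 of 9.50. EFM192A had 5 of 6 fibroblast markers above background, against 2 in EFM192B and 1 in EFM192C. By limma's moderated F test with Benjamini-Hochberg adjustment, 14 of 35 detected members differed between sets, beside 44.3% of all detected genes. The smallest adjusted p was 0.000149 for ABCA12, which averaged 9.56 in AU565 and SKBR3, 9.13 in EFM192 and 9.68 in VP, against 4.99 in HMT3522, 3.05 in MB157 with MDAMB157 and 3.83 in MDAMB435. ABCG1 (adjusted p = 0.00153) averaged 4.11 in MDAMB435 and 8.02 to 11.33 in the other sets. ABCA6 (adjusted p = 0.00037) averaged 7.97 in HMT3522 and at most 3.44 in the others.

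Of the efflux genes, ABCC2 and ABCC5 differed between sets. ABCC2 (limma adjusted p = 0.00749) averaged 9.16 in MDAMB435 and 8.99 in VP, against 5.81 in MB157 with MDAMB157. ABCC5 (limma adjusted p = 0.00709) averaged 12.14 in EFM192 and 10.18 in MB157 with MDAMB157. For ABCB1, ABCG2, ABCC1 and ABCC4 the limma adjusted p was 0.936, 0.494, 0.296 and 0.519. ABCC3 had an adjusted p of 0.0538 and passed without EFM192A (0.0237), EFM192B (0.0366) or MDAMB435S (0.0356). The other 9 members that differed were ABCA1, ABCA2, ABCA3, ABCA4, ABCA10, ABCB4, ABCD3, ABCD4 and ABCF3.

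Of these calls, 5 were lost when some single line was left out. ABCB4 (limma adjusted p = 0.049) was lost when any line but EFM192B was left out (0.0667 to 0.112). ABCD4 (adjusted p = 0.0377) was lost when any of 10 lines was left out (0.0505 to 0.0849), the exceptions being EFM192B, HMT3522S1, MDAMB435S and VP267. ABCA1 was lost without AU565 (0.0583), ABCA10 without AU565 (0.0686), HMT3522S1 (0.0604) or HMT3522T42 (0.0598), and ABCA2 without AU565 (0.0658), HMT3522T42 (0.0512) or SKBR3 (0.0609). In the other direction, ABCC11 (0.0635) passed without EFM192B (0.00517) or AU565 (0.0439), and ABCA8 without MB157 (0.00238). ABCB10 and ABCB6 passed without VP267 (0.0111 and 0.0464), ABCA5 without HMT3522S1 (0.0443) and ABCB8 without MDAMB157 (0.0465).

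Of the 7 efflux genes, 3 differed by at least 3 log2 units between lines of common origin in some set, ABCC4, ABCG2 and ABCC3. The widest range within a set was 0.97 for ABCC5, 0.99 for ABCB1, 1.38 for ABCC1 and 1.70 for ABCC2. In the EFM192 lines ABCC4 read 12.19 in EFM192A, 8.88 in EFM192B and 3.97 in EFM192C, a range of 8.22 that was 4.91 without EFM192A. In the other set with a wide range, AU565 read 9.85 and SKBR3 5.77. ABCG2 read 9.88 in MDAMB435S, 5.76 in NM2C5 and 5.21 in M4A4, and it also differed by 4.09 within EFM192, by 3.83 between AU565 and SKBR3 and by 3.36 between VP229 and VP267. ABCC3 read 12.59, 8.33 and 7.24 in EFM192A, EFM192C and EFM192B, a range that shrank to 1.10 without EFM192A, and 7.61 in MDAMB435S against 4.27 in M4A4 and 4.16 in NM2C5. For these 3 genes some lines of 1 origin were above background and others below it, or both were far above it and still apart.

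**Figure D4:**
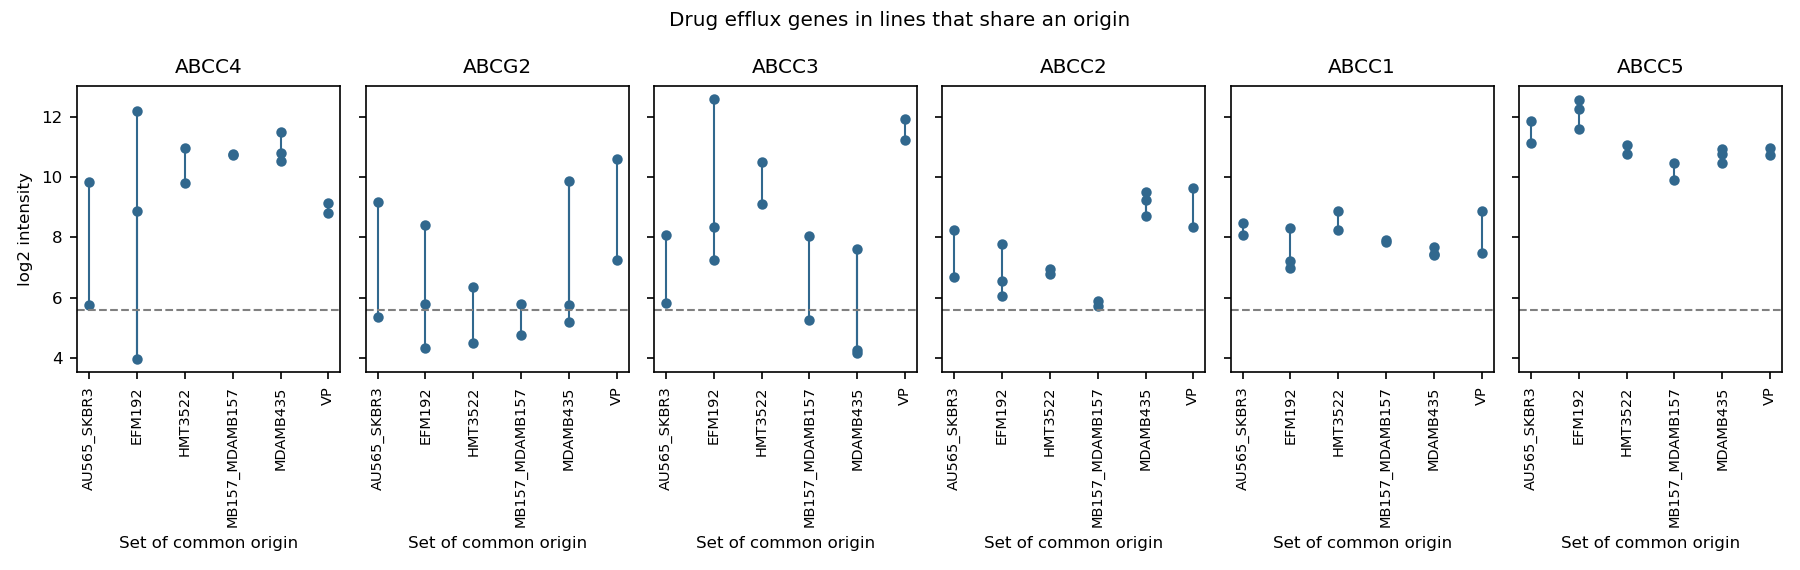
Log2 intensity (y axis) of 6 drug efflux genes in the 14 lines of 6 sets of common origin (x axis), 1 point per line with a vertical line joining the lines of a set, and a dashed line at the background level of 5.58. ABCC4 in EFM192 spans 8.22 log2 units and ABCG2 in MDAMB435 spans 4.67, while ABCC5 spans at most 0.97 in any set.

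A range of at least 3 within some set was found for 9 of 35 detected members, beside 15% of detected genes. They were ABCC4, ABCG2, ABCC3, ABCC11, ABCA13, ABCB4, ABCG1, ABCA8 and ABCA1, and the count was 9 without EFM192A too, beside 13.6% of detected genes. ABCC11 read 11.30 in EFM192C and 5.39 in EFM192B, ABCA13 read 7.23 in AU565 and 2.34 in SKBR3, and ABCG1 read 11.35 in VP229 and 7.91 in VP267. For the remaining members the lines of 1 origin lay closer together. The median range over genes and sets was 0.56 for the 35 members, 0.97 for the 7 efflux genes and 0.45 for all detected genes.

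Members were next compared with 6 measures of cell state over the 50 units, as limma slopes in log2 units of the member per log2 unit of the measure, adjusted over all detected genes. ESR1, FOXA1 and CDH1 each fell in 2 clusters of units (21 low and 29 high for ESR1 and for CDH1, 34 and 16 for FOXA1), and the cluster was kept as a factor so that a slope is one within clusters.

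FOXA1, a pioneer factor of luminal breast cells, had the most calls of the 3 clustered measures, 2 positive and 4 negative of 35, beside 9.70% and 8.27% of genes (18% in either direction). ABCA12 rose with FOXA1 (slope 0.48, SE 0.10, limma adjusted p = 0.000537), and ABCA7 did so less steeply (0.10, SE 0.03). ABCA1 (-0.43, SE 0.10), ABCC4 (-0.33, SE 0.11), ABCA8 (-0.29, SE 0.06) and ABCA6 (-0.27, SE 0.07) fell. Within the low cluster, HS362T and MDAMB231 had least FOXA1 (3.46 and 3.997) and read 11.92 and 11.35 for ABCA1 and 10.24 and 10.22 for ABCC4, while HCC1954 and BT20 had most (12.63 and 12.46) and read 5.57 and 8.15 for ABCA1 and 8.46 and 3.46 for ABCC4. The 4 Hs lines had FOXA1 of 3.46 to 4.87, 6 of 6 fibroblast markers and ABCA1 of 10.74 to 11.92. ABCA6 was 7.09 to 8.12 and ABCA8 6.43 to 8.04 in HS362T, HS605T and HS739T, and in HS579MG both were under background at 5.48 and 4.72. Without the 4 lines ABCA6 and ABCA8 were not detected and so were not tested. The slopes of both thus rest on lines that let them into the fit. ABCA12 alone was still called (slope 0.51, limma adjusted p = 0.0056). The slopes became -0.35 (adjusted p = 0.0867) for ABCA1, -0.35 (0.103) for ABCC4 and 0.06 (0.428) for ABCA7. ABCA7 also missed the threshold without MT3 (slope 0.09, adjusted p = 0.0639). FOXA1 was chosen as a measure after the data were seen.

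With ESR1, the estrogen receptor, 1 of 35 members was called, beside 0.833% of genes in either direction. ABCC13 rose with ESR1 (slope 0.45, SE 0.10, limma adjusted p = 0.0189), and its 4 lines above background, T47D, ZR751, MDAMB175VII and HCC1806, had ESR1 of 12.73, 12.69, 11.73 and 9.34. ABCC13 was detected through these 4 lines alone, all in the high ESR1 cluster. Its slope thus rests on lines that let it into the fit. Units with like ESR1 had ABCC13 under background, with 2.85 in MDAMB361 (ESR1 12.36), 2.54 in CAMA1 (12.24), 4.69 in KPL1 (12.45) and 2.71 in EFM192 (11.07). The call rested on T47D, without which the slope was 0.34 (adjusted p = 0.0793). For the 7 efflux genes the adjusted p ranged from 0.391 (ABCC5) to 0.922 (ABCG2). With no cluster factor ABCC4 was called and fell with ESR1 (slope -0.31, SE 0.09, limma adjusted p = 0.035). With CDH1, the epithelial cadherin, ABCC9 fell (slope -0.32, SE 0.07, limma adjusted p = 0.00554), beside 1.13% of genes with a negative slope, 1.22% with a positive one and 2.35% in all. Within the low cluster, HS362T and MDAMB436 with CDH1 of 3.93 and 4.01 had ABCC9 of 6.50 and 7.20, and CAL120 with 10.66 had 3.67, but AU565 with SKBR3, averaging 4.06 for CDH1, had 3.74. The call was lost with all 58 lines as units (slope -0.24, adjusted p = 0.0653), and without the 4 Hs lines the slope was -0.22 (adjusted p = 0.319).

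MKI67, a marker of dividing cells, was followed by ABCE1 alone (slope 0.16, SE 0.05, limma adjusted p = 0.046), beside 4.29% of genes with a positive slope and 5.83% in either direction. ABCE1 read 10.83 in HS362T, the unit with least MKI67, and 12.22 in HCC1806, the unit with most. Without the 4 Hs lines the slope was 0.07 (adjusted p = 0.544), so this call rested on them, and it was lost under 6 other settings, with adjusted p from 0.0554 (all 58 lines as units) to 0.255 (array quality as a term).

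The score of NRF2 targets had the most calls among members. NRF2, the product of NFE2L2, turns on genes of the response to oxidants and electrophiles, and several ABCC genes are known targets of it. The score was the mean over 14 target genes outside the family of each gene's distance from its median, and it ran from -1.73 (CAMA1) to 2.04 (HCC1395). Of 35 members, 2 rose and 6 fell, beside 5.98% and 8.73% of genes. ABCC3 rose by 1.46 per unit of score (SE 0.31, limma adjusted p = 0.00139), and ABCA1 rose by 1.26 (SE 0.33, adjusted p = 0.00899). ABCC3 read 10.94, 11.28 and 11.58 in HCC1395, BT20 and VP, the units with the highest scores, and 4.38, 7.83 and 4.18 in CAMA1, MDAMB453 and COLO824, those with the lowest. HCC1806, the next highest score at 1.38, had 7.43, inside the range of the 3 lowest.

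The members that fell with the NRF2 score were ABCC11, ABCA3, ABCG1, ABCB9, ABCC8 and ABCA2. ABCC11 fell by 1.93 per unit (SE 0.38, limma adjusted p = 0.00076), ABCG1 fell by 1.43 (SE 0.42) and ABCA3 fell by 1.30 (SE 0.27). In HCC1395, BT20 and VP, ABCC11 read 3.75, 4.07 and 5.98, against 8.94, 11.31 and 4.14 in CAMA1, MDAMB453 and COLO824, so COLO824 was low in spite of its low score. ABCB9 (-0.46), ABCC8 (-0.42) and ABCA2 (-0.32) had smaller slopes. Each of these members also rose with FOXA1 when the FOXA1 cluster factor was dropped, and none was called with it. Those slopes were 0.59 for ABCC11 (limma adjusted p = 3.4e-07), 0.49 for ABCG1, 0.30 for ABCA3, 0.12 for ABCC8, 0.11 for ABCB9 and 0.08 for ABCA2 (adjusted p = 0.0407). A fit with both measures was not run, so the NRF2 score and FOXA1 were not told apart for these members. The same holds for ABCA1, which rose with the score and fell with FOXA1 in the main fit (slope -0.43, limma adjusted p = 0.00237). The call for ABCA2 was lost without T47D (slope -0.28, adjusted p = 0.0918). Without the 4 Hs lines 5 of the 35 members were called, and ABCG1 (-1.33, adjusted p = 0.0508), ABCB9 (-0.35, 0.0999) and ABCA2 (-0.35, 0.0603) missed the threshold. With all 58 lines as units the slope of ABCG1 was -1.07 (adjusted p = 0.0721), and ABCA2 also missed the threshold with the mean of probe sets (0.0612) and with no filter (0.0596). Other probe sets correlated with the chosen one at 0.17 for ABCB9, 0.55 for ABCC8 and 0.55 for ABCA3. They were above background in 0, 1 and 6 lines. For ABCG1 the correlation was 0.61 to 0.87, with 0, 21 and 23 lines above background. The calls for ABCB9, ABCC8, ABCA3 and ABCG1 held with the mean of probe sets.

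The other ABCC genes known as NRF2 targets did not pass. ABCC1 had a slope of 0.28 (SE 0.12, limma adjusted p = 0.0929), ABCC2 one of -0.04 (SE 0.22) and ABCC4 one of 0.65 (SE 0.35, adjusted p = 0.215). ABCG2 had 0.63 (SE 0.30, adjusted p = 0.15), ABCC5 had -0.27 (SE 0.12, adjusted p = 0.121) and ABCB1 had -0.14 (SE 0.29). A difference between these slopes and that of ABCC3 was not tested.

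**Figure D5:**
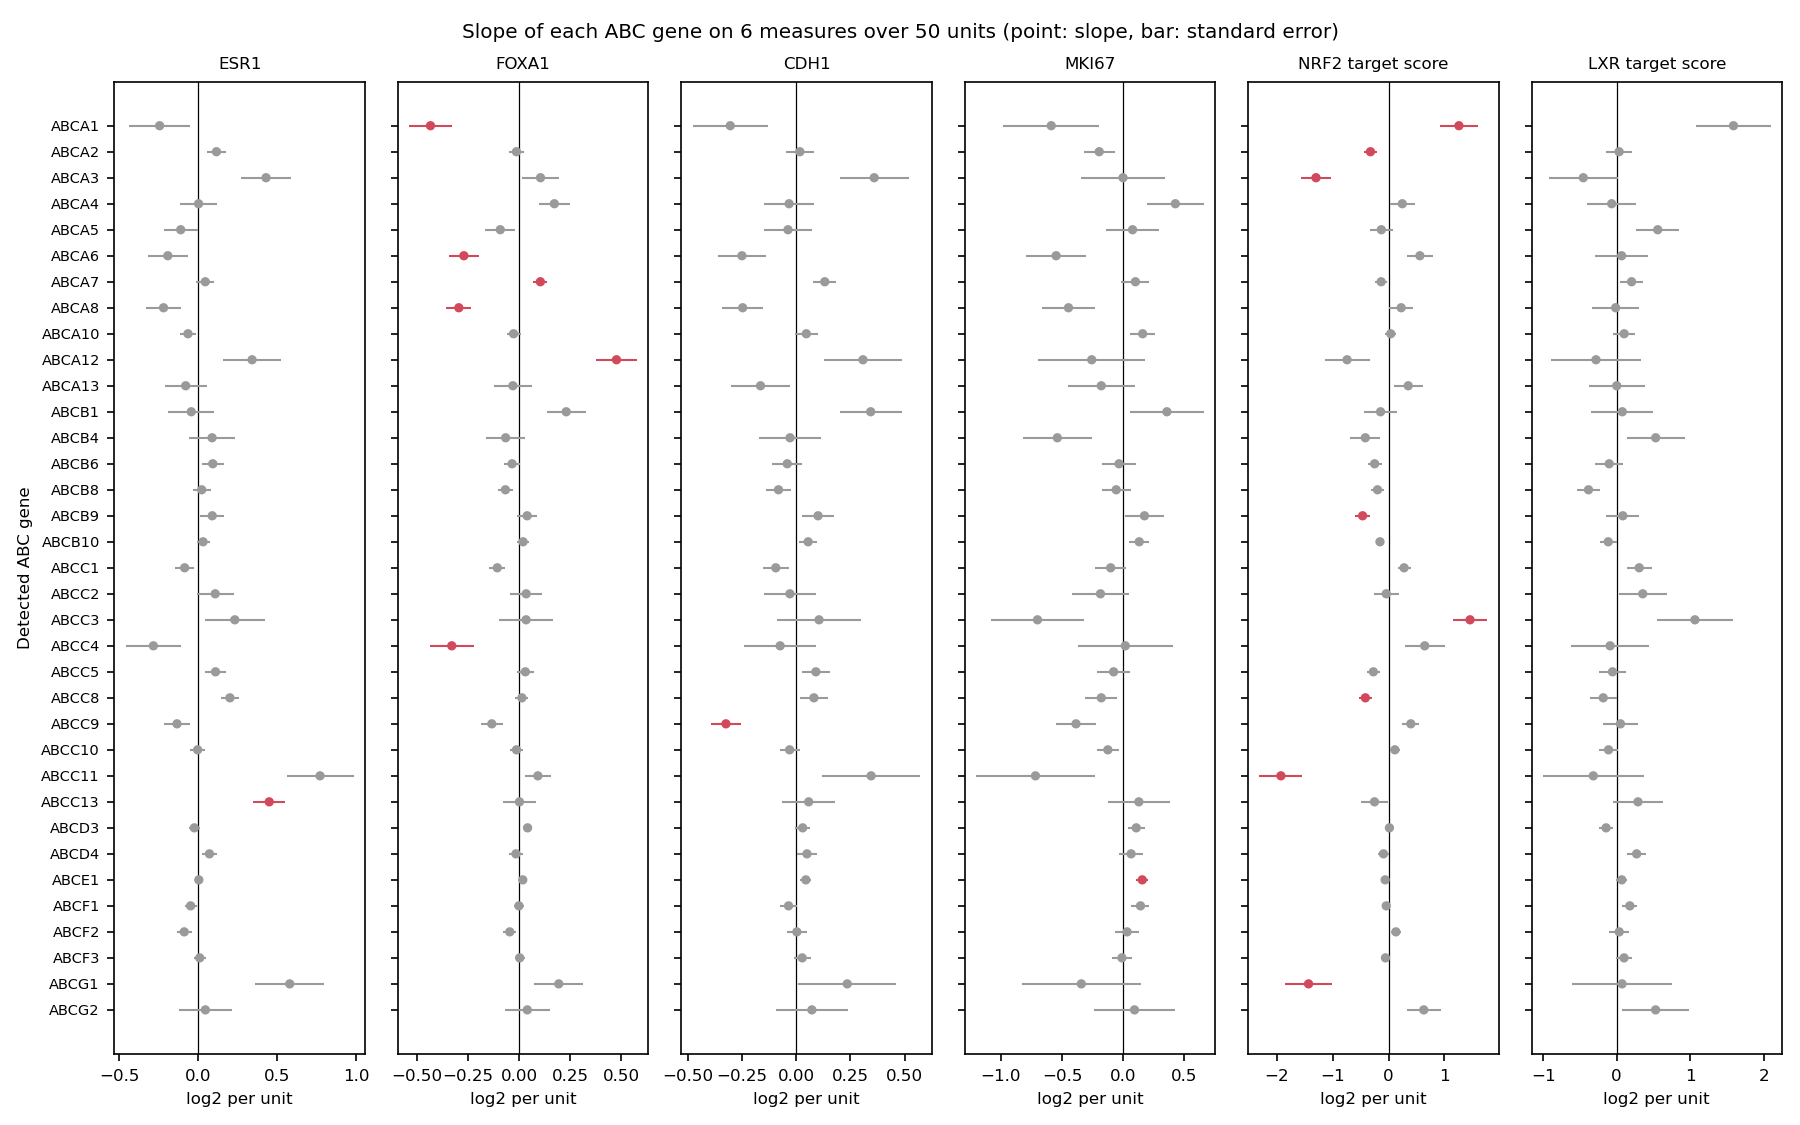
Slope of each of the 35 detected ABC genes (rows) on 6 measures of cell state (panels) over 50 units, in log2 units of the gene per unit of the measure, with a bar of 1 standard error on each side and red for an adjusted p under 0.05. The NRF2 panel has 8 red points, 2 to the right of 0 and 6 to the left, the FOXA1 panel has 6, the ESR1, CDH1 and MKI67 panels have 1 each and the LXR panel has none.

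The score of LXR targets gave 0 calls among members, beside 0 of all 14643 genes tested by limma, and 4 of 35 members had an unadjusted p under 0.05. LXRs are sterol sensors, and ABCA1 and ABCG1 are their best known targets. The score came from 8 genes outside the family and ran from -1.28 (MFM223) to 1.43 (HCC1187). ABCA1 had a slope of 1.59 (SE 0.51, unadjusted p = 0.00278, limma adjusted p = 0.797), and ABCG1 had one of 0.07. ABCA1 read 4.55 in MFM223 and 9.12 in HCC1187, and ABCG1 read 12.04 and 6.39, so the pair ran opposite ways between these lines.

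Genes that work with the transporters were read from 3 lists, of relatives and partners, regulators, and glutathione metabolism. With the NRF2 score, 4 of 13 tested relatives and partners rose and 1 fell, beside the 5.98% and 8.73% of all genes above (14.7% in either direction), which is also the background of the other lists. MVP, the major vault protein, rose by 1.003 per unit (SE 0.15, limma adjusted p = 2.47e-05), MSN, the membrane linker moesin, rose by 2.43 (SE 0.45), and KCNJ11, the channel subunit that ABCC8 regulates, fell by 1.43 (SE 0.24) as ABCC8 itself fell. Of 10 tested regulators 4 rose with the score, among them HIF1A (0.21, SE 0.04), AHR (0.72, SE 0.16) and NFE2L2 (0.24, SE 0.06). Of 7 glutathione genes outside the score, GPX4 alone passed and fell (-0.20, SE 0.07).

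With FOXA1, where 18% of all genes were called, 2 partners rose and 1 fell, EZR (0.08, SE 0.02), KCNJ11 (0.21, SE 0.07) and KCNJ8 (-0.30, SE 0.10). PPARG rose (0.35, SE 0.09) as 1 of 10 regulators, and 2 of 10 glutathione genes rose (MGST2 at 0.38 and GCLC at 0.12) while 2 fell, among them GSTP1 (-0.46, SE 0.15). With MKI67, TAP2 rose (0.57, SE 0.16) and KCNJ8, the channel subunit that ABCC9 regulates, fell (-1.06, SE 0.30), and YBX1 rose (0.10, SE 0.03), beside 5.83% of genes called. With ESR1, YBX1 fell (-0.05, SE 0.01) as the one list gene called. With CDH1 the smallest adjusted p of the lists was 0.0581 for EZR (0.12, SE 0.04), and with the LXR score it was 0.998.

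The relatives under other symbols were also read. TAP1 and TAP2, which load peptides for antigen presentation, were above background in all 50 units, from 6.39 to 11.43 (HCC1187) and from 7.69 to 11.40 (HCC70). CFTR, the chloride channel of epithelia, was above background in 3 units, MT3 at 11.65, SW527 at 7.40 and MFM223 at 5.66. MT3 and SW527 were, after DU4475, the highest lines for ABCB1.

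The 7 efflux genes were compared in 21 pairs, which gave 32 testable relations because ABCB1 and ABCC2 each fell in 2 clusters and r was then taken within clusters. None passed after Benjamini-Hochberg adjustment over the 32, by Pearson's r or by Spearman's rho, with permutation p-values (exact under 10 units). The smallest unadjusted p was that of ABCC1 with ABCC4 over 50 units (rho 0.32, permutation p = 0.0249, adjusted p = 0.589, r 0.24, permutation p = 0.0877, adjusted p = 0.483, and r 0.18 without DU4475 and BT20), and it was the only one of the 32 with an unadjusted p under 0.05. Leaving out the 3 widest arrays, which also changed how ABCG2 was clustered, gave 1 call, for ABCB1 and ABCG2 among 29 units with low ABCB1 (r 0.61, permutation p = 0.00064, adjusted p = 0.023, and r 0.50 without HCC1143 and SVCT), and the adjusted p for rho was 0.0947. The units with low ABCB1, 44 of 50 in the main comparison, were under background for ABCB1. Relations among them thus compare ABCB1 signal that cannot be told from background, and they leave out the 6 units above it.

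Adjacent genes of the family were compared as a family of their own. Of 7 pairs that neighbour each other among protein-coding genes, 3 had both members detected and gave 5 relations, none of which passed. ABCA6 and ABCA10 had r of 0.34 among the 43 units with low ABCA6 (permutation p = 0.0263, adjusted p = 0.119, r 0.20 without MDAMB436 and BT549, rho 0.23 with permutation p = 0.139 and adjusted p = 0.378). Among the 7 units with high ABCA6 the r was -0.55 (exact permutation p = 0.212, adjusted p = 0.354, rho -0.46). ABCA10 and ABCA5 had r of 0.28 over 50 units (permutation p = 0.0475, adjusted p = 0.119, r 0.27 without BT549 and HCC1806, rho 0.17 with permutation p = 0.231 and adjusted p = 0.378). ABCB4 and ABCB1 had r of 0.18 and 0.19 among 12 and 32 units, with permutation p-values of 0.579 and 0.29 (adjusted p = 0.579 and 0.363, rho 0.19 and 0.21, and r 0.49 and 0.26 without the 2 units farthest out). Both groups held only units with low ABCB1, all under background for it, so SW527, high in both genes, was in neither. Without the 3 widest arrays ABCA6 and ABCA10 passed by r (0.41, permutation p = 0.00792, adjusted p = 0.0396, n = 41, and r 0.15 without BT549 and MCF102A), and by rho the adjusted p was 0.298.

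For each efflux gene, the 3 genes outside the family with the most similar pattern were found by Pearson's r over the 50 units, as a description. ABCB1 was closest to TLDC2 (r 0.90), EPS8L3 (0.89) and ERLN (0.86), which rested on its few high units, since Spearman's rho was 0.27, 0.18 and 0.23. ABCC4 was closest to COL4A2 (r 0.71, rho 0.67), a basement membrane collagen gene on the same chromosome with 49 protein-coding genes between, then to PIP4P2 (0.64) and TIMP1 (0.64), an inhibitor of matrix metalloproteinases. ABCC1 was closest to QKI (0.65), SH3PXD2B (0.59) and PFKM (0.58), and r with QKI was 0.41 without DU4475 and BT20. ABCC3 was closest to SMAD3 (0.60), STAT6 (0.59) and SERPINA3 (0.59), ABCG2 to PVR (0.59), GULP1 (0.57) and CDH5 (0.55), ABCC5 to BCDIN3D (0.60), DNAJC14 (0.59) and EPO (0.59), and ABCC2 to OLIG1 (0.58), H19 (0.52) and FAM3B (0.51).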

How the data were processed

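Total RNA of 58 untreated cell lines was amplified and hybridised to 1 array each. Per the submitters' processing notes, the authors made the deposited log2 intensities with RMA in Affymetrix Power Tools, and neither version is given in the sources used here. Of 52377 probe sets, 35184 named 1 gene, 374 named several and 16819 none. The family to describe and the lists were chosen with earlier results of these data known, while the symbol alone set which genes were members.

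The labels define no groups. Sets of common origin rest on textbook knowledge and were averaged to 50 units. Fits used limma 3.58.1 (trend, robust) in R 4.3.3 over 14651 detected genes with Benjamini-Hochberg adjustment at 0.05, clusters came from mclust 6.1.1 (BIC gain over 10, at least 3 units each), and correlations used 100000 permutations, 2-sided. The fits were tested on simulated data. The number of arrays limits the precision.

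Named were all members with their range, the top decile of lines for efflux genes, members past the threshold in a slope fit or with a highest unit at least 1.5 above the next, the 3 nearest genes of each efflux gene, and the 3 smallest adjusted p of each companion list. Members with several probe sets numbered 27. Alternatives were another probe set summary, normalization, filter, eBayes setting, covariate set and set of lines. FOXA1, members past the threshold without their highest unit and the spread without EFM192A were added after seeing the data. RefSeq promoters are of GRCh38.p14, and the build of the array annotation is not given in the sources used here, so no member positions come from it. Proteins were not analysed here.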

Additional observations from a re-analysis of the deposited data

How the results depend on the processing

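The count of members that differed between sets of common origin was 14 and ran from 10 to 16 when each line was left out in turn. The count of detected members with an SD of at least 1 was 17, and 11 reached 1.5. The ESR1 count of 1 became 2 with the mean of probe sets, 3 with all 58 lines as units, 0 with the filter at 10 units (where ABCC13 is not tested) and 5 with no cluster factor. ABCC11 (limma adjusted p = 0.0576 in the main fit) was among the members called in the settings with 2, 3 and 5. The FOXA1 count of 6 became 1 without the 4 Hs lines (where ABCA6 and ABCA8 are not tested) and 15 with no cluster factor. Efflux genes newly called among the 15 were ABCC1 (slope -0.08) and ABCC5 (0.09). The CDH1 count of 1 became 0 with 58 lines, without the 4 Hs lines and with the filter at 10 units, and 11 with no cluster factor. Among the 11 were the efflux genes ABCC1 (slope -0.08) and ABCC4 (-0.32). The MKI67 count of 1 became 0 with the mean of probe sets, 58 lines, no 4 Hs lines, no 3 widest arrays, plain eBayes and array quality as a term. With no filter it stayed 1 but was another member in the other direction, since ABCE1 was lost (adjusted p = 0.0605) and ABCA9, not tested otherwise, fell (slope -0.58, adjusted p = 0.0348). The NRF2 count of 8 became 5 without the 4 Hs lines. Efflux pairs and neighbour pairs each went from 0 to 1 without the 3 widest arrays. The cause was not tested. No slope of a called member changed sign. Without the 4 Hs lines, 8 of 15 slopes that could be tested missed the threshold and 7 held, while a second quantile normalization left all 17 past it. The spread within sets gave 9 members with and without EFM192A. Leaving out probe sets marked for cross-hybridisation gave no other value, since no named probe set was so marked. One planned slope fit was not run. No paired analysis was possible because the labels give no groups. Levels near 5.58 cannot be told from background.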

Other observations

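Pseudogene and antisense transcripts named after ABC genes were measured beside the family. ABCA17P, a transcribed pseudogene next to ABCA3, was above background in 30 of 50 units and reached 11.78 in MT3, 11.20 in MDAMB453 and 11.14 in DU4475, with a median of 6.43. ABCA11P was above background in 12 units with a highest value of 6.42 in CAL120, and ABCA15P in none. ABCC5-AS1 exceeded background in HCC1937 alone at 5.82, although ABCC5 was above background in all lines. The probe sets of ABCA17P and ABCA3, and of ABCC5-AS1 and ABCC5, were not compared for shared sequence.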
